A study of Mus musculus with 9 samples.

Results

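The transcripts of 9 factors of nonsense-mediated mRNA decay (NMD) were followed in MC38 cells. They are Upf1, Upf2, Upf3a and Upf3b (the UPF core), Smg1, Smg8 and Smg9 (the kinase complex that phosphorylates UPF1), and Smg5 and Smg6 (which bind phosphorylated UPF1 and start decay). Members were taken by gene symbol from a table of 16509 genes, and all 9 were among the 11949 genes that passed a filter on low counts and were tested. With Cadict, Upf3a, Smg8 and Smg5 fell to between 0.272 and 0.44 of their control level. Their closest partners, Upf3b, Smg9 and Smg6, rose over the same libraries on the TMM scale, although with library totals only Smg9 did. In each of these 3 arms the partner that fell had been the more abundant transcript of the pair in Ctrl cells, and became the less abundant one with Cadict. On the TMM scale, 40.6% of all tested genes passed the edgeR test as higher with Cadict and 47.1% as lower, so both directions were common.

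NMD removes mRNAs on which translation ends too early. A ribosome that stops upstream of an exon junction complex, or far from the poly(A) tail, recruits the helicase UPF1, which UPF2 and a UPF3 protein connect to the exon junction complex. The kinase SMG1, held in check by SMG8 and SMG9, then phosphorylates UPF1. The endonuclease SMG6 cuts the marked mRNA near the stop codon, while SMG5 promotes deadenylation and decapping. Besides faulty mRNAs, NMD lowers a set of normal transcripts, among them stress-response mRNAs and the mRNAs of several NMD factors themselves.

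MC38 is a mouse colon carcinoma line, and its messenger RNA was sequenced in 9 libraries, 3 in each of 3 groups. Ctrl cells received vehicle, which the labels give as DMSO and the study's text as PBS. Cu-Cys cells received copper chloride with cystine. Cadict cells received a nanodrug built from copper and cystine that also carries glucose oxidase and GE11, a peptide that binds the EGF receptor. No dose or duration is given for these libraries, no group was treated with glucose oxidase or the peptide alone, and the vehicle was the only control. The deposited columns abbreviate the treatments as CTL, CC and CCGE, and CCGE was read as Cadict from its components. The study's methods describe its cell experiments in general as independently repeated, but the labels do not say whether the 3 libraries of a group came from separate cultures, and the p-values measure the spread between these libraries. In RNA from whole cultures, fewer cells that express a gene and less of its RNA per cell cannot be told apart.

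Each library held 17905771 to 18293056 counted reads, so depth was nearly equal. The make-up of the Cadict libraries differed from the rest, with 29.8 to 31.1% of counts in the 100 most abundant genes, against 17.2 to 17.4% in Ctrl and 17.9 to 18.2% in Cu-Cys. TMM, a scaling that centres the bulk of genes, gave factors of 0.64 to 0.665 for Cadict and 1.26 to 1.27 for Ctrl. Scaling by library totals in its place moved the median log2 fold change of all genes by -0.95 in Cadict against Ctrl, and every change below is given on the TMM scale unless stated. Cadict replicate 2 stood apart from its group, with a chi-square per degree of freedom of 14.7 and 23.1 against the other two, which differed from each other by 3.63. Of 7 epithelial markers, 6 were in the table and only Krt19 and Cdh1 reached 1 TPM, while Epcam was listed at 0 in each Ctrl library. The summed TPM of the epithelial list was 4.22 to 6.24 in Ctrl, 3.5 to 3.95 in Cu-Cys and 11.5 to 13.2 in Cadict. The leukocyte list, 3 of 4 genes in the table and led by Cd68, summed to 7.7 to 8.74 TPM in Ctrl, 4.79 to 5.96 in Cu-Cys and 15.2 to 18.7 in Cadict, with the pan-leukocyte gene Ptprc at 0.01 to 0.07 TPM throughout. The fibroblast list summed to 12.5 to 15.2, 7.3 to 8.04 and 1.56 to 2.1 TPM in the same order, nearly all of it Pdgfra, and the endothelial list to at most 1.17 TPM in any library. The part of these shifts in the values that follow was not tested.

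The sequences upstream of the 3 partner pairs that moved apart are shown first, so that each gene can be set beside its partner. Each run is the 100 bases just before the start of transcription, 5′ to 3′ on the gene's own strand, from RefSeq on GRCm38.p6. Capitals mark the motifs found on either strand, which are the CCAAT box (CCAAT, or ATTGG on the other strand), the GC box (GGGCGG or CCGCCC) and the ETS core (CCGGAAG). The Upf3a window is chr8:13785515-13785614 on the plus strand, and the Upf3b window is chrX:37110323-37110422 on the minus strand. Smg8 is read from chr11:87086778-87086877 on the minus strand and Smg9 from chr7:24399528-24399627 on the plus strand. Smg5 is read from chr3:88336160-88336259 and Smg6 from chr11:74925754-74925853, both on the plus strand.
Upf3a: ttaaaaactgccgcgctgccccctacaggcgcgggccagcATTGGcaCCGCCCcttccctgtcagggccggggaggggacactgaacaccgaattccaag
Upf3b: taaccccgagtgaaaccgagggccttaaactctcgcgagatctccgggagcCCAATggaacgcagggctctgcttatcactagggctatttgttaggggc
Smg8: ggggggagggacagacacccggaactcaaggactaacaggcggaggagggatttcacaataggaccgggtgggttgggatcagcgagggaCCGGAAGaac
Smg9: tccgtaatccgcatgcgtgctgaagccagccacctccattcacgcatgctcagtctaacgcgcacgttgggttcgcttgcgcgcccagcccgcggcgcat
Smg5: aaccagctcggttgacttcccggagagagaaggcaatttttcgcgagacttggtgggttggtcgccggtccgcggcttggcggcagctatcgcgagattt
Smg6: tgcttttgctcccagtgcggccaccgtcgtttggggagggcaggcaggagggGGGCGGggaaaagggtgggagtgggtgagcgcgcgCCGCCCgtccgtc
A CCAAT box stood in the printed stretch of both UPF3 genes, and GC boxes in those of Upf3a and Smg6. An ETS core lay 10 bases before the Smg8 start. Neither Smg5 nor Smg9 held any of the searched motifs in these 100 bases.

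Over the full 250 bases upstream, searched on both strands with overlapping copies counted, a CCAAT box was found for 4 of the 9 members and in 33.8% of 32851 RefSeq promoters of that length. A GC box was found for 7 of the 9, against 32.7% of promoters, and the 250 bases of the members were 50.8 to 72.8% G and C, with a median of 52.4% over all promoters. The ETS core was present for Smg8 alone (6.91% of promoters), and the NRF1 site for Upf1 alone (0.782%). The cyclic AMP element TGACGTCA, the E box CACGTG and the stress-response element TGATGNAA (CARE) were in none of the 9, against 1.55, 6.02 and 3.45% of promoters. Smg5 held none of the motifs in its 250 bases, so no motif could be shared by the 3 falling genes. Upf3a and Upf3b both held a CCAAT box and a GC box. Smg8 held a CCAAT box and the ETS core, Smg9 a GC box, and Smg6 GC boxes.

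UPF1 is the ATP-driven helicase on which the pathway turns. The TMM-scaled level of Upf1 was 118, 119 and 110 CPM (reads scaled to one common depth) in the Ctrl libraries, 150, 128 and 135 in Cu-Cys and 221, 213 and 227 in Cadict. The 3 groups did not overlap, in the order Ctrl, Cu-Cys, Cadict. Against Ctrl, Upf1 rose by 0.93 on the log2 scale with Cadict (SE 0.06, n = 3 per group), with an adjusted p of 6.63e-10 by the quasi-likelihood test of edgeR, adjusted after Benjamini and Hochberg. With library totals the value was -0.03 (adjusted p = 0.691). In the annotation, 68 of the 4618 exonic bases of Upf1 overlap Cers1 on the other strand and 63 overlap Gdf1, and the counting is not stated to use strand. Those genes had at most 11 and 5.33 counts in any library, beside 2441 to 3245 for Upf1.

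UPF2 is the bridge between UPF1 and the UPF3 proteins. Upf2 stood at 38.8, 36.9 and 37.9 CPM in Ctrl, 42.3, 39.9 and 40.5 in Cu-Cys and 39.5, 37.4 and 36.3 in Cadict. Ctrl and Cadict overlapped, with a log2 fold change of -0.01 (95% interval -0.13 to 0.12) that did not pass the test. With library totals the value was -0.96 (adjusted p = 2.36e-10), and with the trend of fold change on transcript length removed it was 0.47 (adjusted p = 2.78e-07), so its direction depended on the scaling.

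The UPF3 paralogs moved apart. UPF3B, encoded on the X chromosome, is the stronger NMD activator, and UPF3A can replace it in part. Upf3a was at 35.9, 35.7 and 36.3 CPM in Ctrl, at 45.7, 42.4 and 42.7 in Cu-Cys, and at 10.3, 9.94 and 9.07 in Cadict. All Cadict libraries lay far below the other 6. The log2 fold change with Cadict was -1.88 ± 0.08 (SE), a 3.68-fold fall (adjusted p = 1.63e-12, edgeR). Behind it were 825 to 832 counts in Ctrl and 108 to 121 in Cadict. Of all tested genes, 13% had a lower log2 fold change.

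Upf3b was at 21.9, 21.3 and 22.2 CPM in Ctrl, 23.7, 22.5 and 22.6 in Cu-Cys and 25.3, 27.5 and 29.7 in Cadict. The Cadict libraries lay above the others by a small margin, with a log2 fold change of 0.33 ± 0.07 (adjusted p = 0.000416, edgeR), which became -0.62 with library totals. The fall of Upf3a held on either scale, at -2.83 with library totals and -2.05 with the length trend removed.

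**Figure D1:**
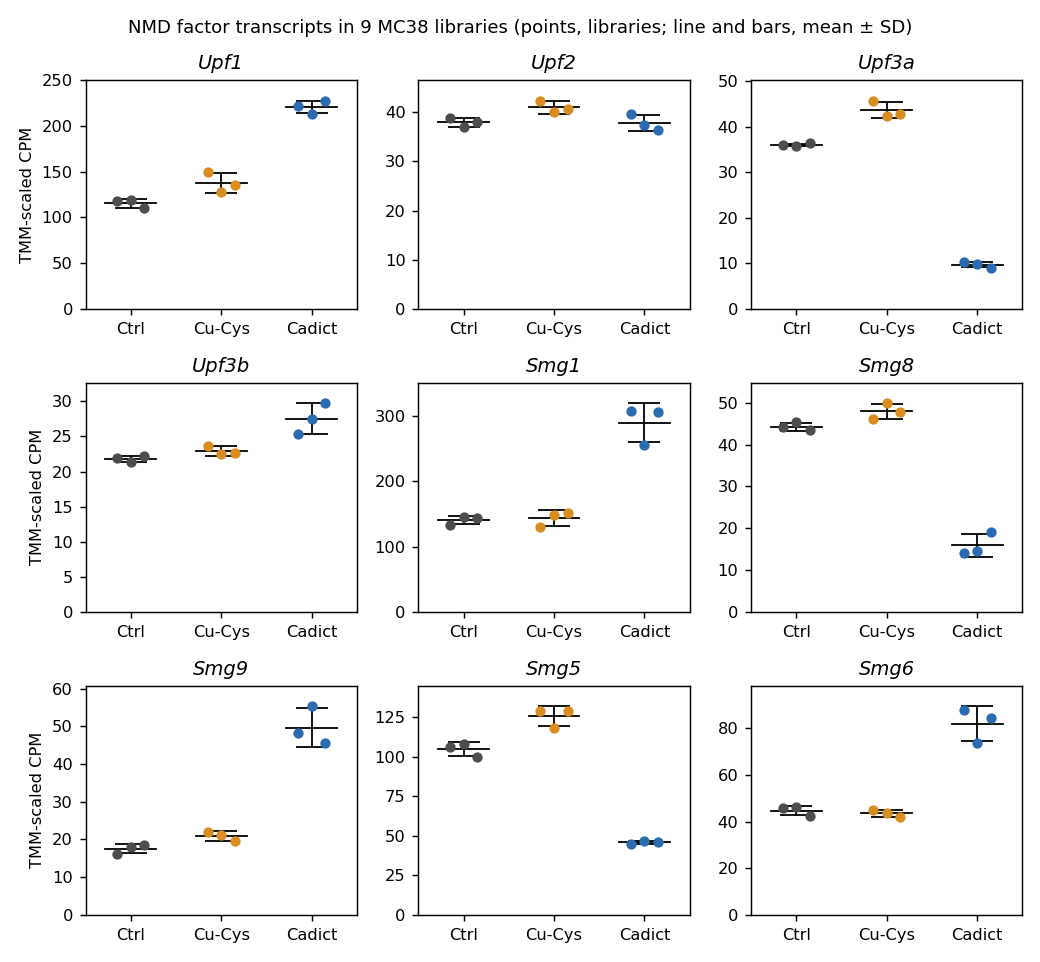
TMM-scaled CPM (vertical axis, from 0) of the 9 NMD factor transcripts in each of 9 libraries, with the group mean and SD. Upf3a, Smg8 and Smg5 sit lowest in the 3 Cadict libraries, whereas Upf1, Smg1, Smg9 and Smg6 sit highest there on this scale. Upf3b also sits highest there, by a small margin, and Upf2 overlaps between Ctrl and Cadict.

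The SMG1 complex was split in the same way. SMG1 is a large kinase of the PI3K-like family. Its transcript was at 134, 145 and 144 CPM in Ctrl, 130, 149 and 152 in Cu-Cys and 308, 256 and 306 in Cadict. Ctrl and Cu-Cys overlapped and all Cadict libraries lay above them, with a log2 fold change against Ctrl of 1.04 ± 0.08 (adjusted p = 2.3e-09, edgeR) that was 0.09 with library totals (adjusted p = 0.3). Cadict replicate 2 was the lowest of its group, and without it the change was 1.12.

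SMG8 and SMG9 form a heterodimer that sits on SMG1 and restrains it. Smg8 was at 44.2, 45.3 and 43.4 CPM in Ctrl, 46.2, 49.8 and 47.8 in Cu-Cys and 14.2, 14.5 and 19.1 in Cadict. The fall with Cadict was 2.78-fold (log2 fold change -1.47 ± 0.09, adjusted p = 2.47e-10, edgeR), from 996 to 1047 counts down to 166 to 228. Its dimer partner Smg9 went the other way, from 16.2, 18.1 and 18.5 CPM in Ctrl, through 22.1, 21.3 and 19.5 in Cu-Cys, to 48.3, 55.3 and 45.5 in Cadict. This was a 2.82-fold rise (log2 fold change 1.5 ± 0.08, adjusted p = 8.61e-11, edgeR). Both directions held with library totals, at -2.43 for Smg8 and 0.54 for Smg9 (adjusted p = 6.59e-06).

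The decay arm held the third split. SMG5 is an adaptor on phosphorylated UPF1, and SMG6 is the endonuclease of the pathway. Smg5 was at 106, 108 and 99.5 CPM in Ctrl, 129, 118 and 129 in Cu-Cys and 44.9, 46.8 and 46.3 in Cadict. The 3 Cadict libraries lay within 2 CPM of each other and below the other 6 (log2 fold change against Ctrl -1.18 ± 0.06, a 2.27-fold fall, adjusted p = 1.99e-11, edgeR). Smg6 was at 45.8, 46.1 and 42.3 CPM in Ctrl, 44.9, 43.9 and 41.8 in Cu-Cys and 87.9, 73.7 and 84.4 in Cadict. Its log2 fold change was 0.88 ± 0.07 (adjusted p = 5.7e-09, edgeR), but -0.08 with library totals (adjusted p = 0.327). Srr, on the other strand, shares 126 of 8453 exonic bases with Smg6, and it was counted at 393.36 to 427.07 in Ctrl and 136.12 to 141.87 in Cadict, and whether reads of the overlap were assigned by strand is not known. Smg6 is also the only member with counts that were not whole.

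Of the 9 members, 5 passed the test as higher and 3 as lower in Cadict against Ctrl at an adjusted p of at most 0.05. This is close to the background, since 87.7% of all tested genes passed, 40.6% as higher and 47.1% as lower. Under the study's rule, 2-fold or more with an adjusted p no higher than 0.001, Smg1 and Smg9 were higher and Upf3a, Smg8 and Smg5 lower, beside 20.7% and 27.1% of all genes. The libraries of Cadict and Ctrl did not overlap for 8 members, beside 87.5% of genes. With library totals the same test gave 1 member higher and 5 lower, and all genes split into 2161 higher and 8730 lower in place of 4857 and 5627. Upf3a, Smg8 and Smg5 fell and Smg9 rose under each of 20 alternatives of scaling, filter, test and left-out library, with largest adjusted p-values of 1.15e-09, 6.73e-08, 6e-09 and 0.00878. Without Cadict replicate 2 the counts were again 5 and 3, with log2 fold changes of -1.89 for Upf3a, -1.41 for Smg8, -1.2 for Smg5 and 1.41 for Smg9.

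Fold changes in these libraries also went with transcript length. Across 11548 genes the median log2 fold change of Cadict against Ctrl was 0.56 among the shortest when genes were cut into 5 equal bins by length, and -0.44 among the longest. The falling members were in the first (Upf3a, 1229 bases), the third (Smg8, 2891) and the fourth bin (Smg5, 4198). Of those that rose, Smg9 and Upf3b were in the second bin, Upf1 in the fourth, and Smg1 and Smg6 in the fifth. The falls were -1.14 for Smg8 and -0.71 for Smg5 once the length trend was removed, and the rises of Upf1 and Smg6 became 1.4 and 1.35.

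**Figure D2:**
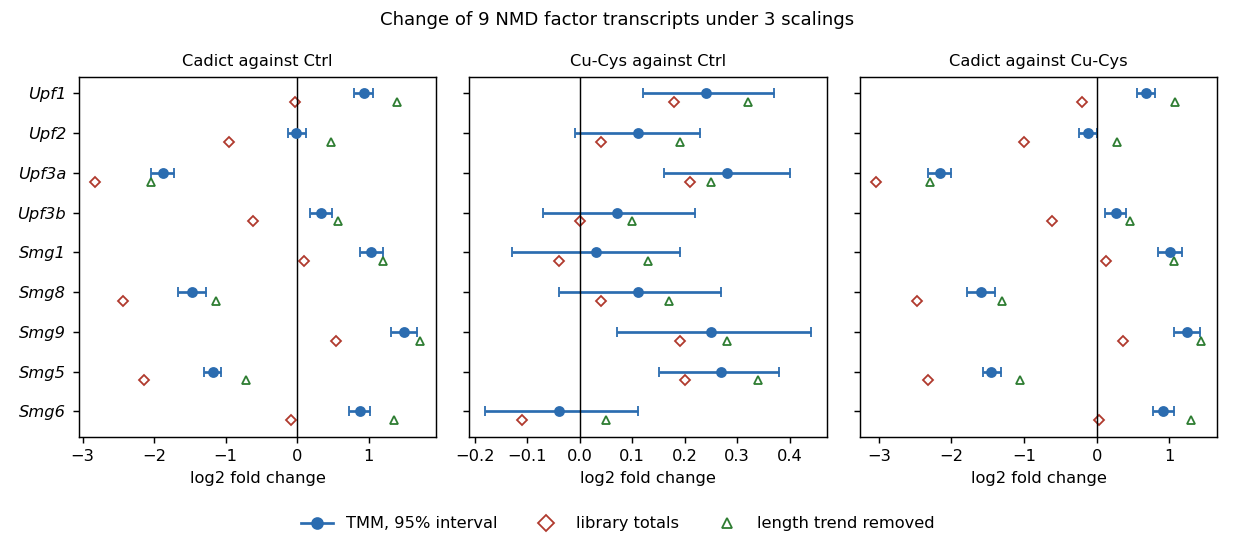
Log2 fold change (horizontal axis, a separate range in each panel) of the 9 members in the 3 comparisons, as points with 95% intervals from the TMM fit, open diamonds for library totals and open triangles after removal of the length trend. In Cadict against Ctrl, Upf3a, Smg8 and Smg5 lie left of 0 and Smg9 right of 0 under all 3, while Upf1 and Smg6 reach values of -0.03 and -0.08 with library totals.

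Ratios between members within a library do not depend on how libraries are scaled. The TPM ratio of Upf3a to Upf3b was 2.83, 2.93 and 2.92 in the Ctrl libraries, 3.3, 3.21 and 3.27 in Cu-Cys and 0.658, 0.592 and 0.494 in Cadict, a 5.01-fold fall against Ctrl. The ratio of Smg8 to Smg9 went from 1.91, 1.78 and 1.69 in Ctrl to 0.2, 0.18 and 0.286 in Cadict, an 8.23-fold fall. The order within both pairs was thus turned over in every Cadict library.

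The ratio of Smg5 to Smg6 fell 4.26-fold, from 2.79, 2.95 and 2.99 in Ctrl to 0.617, 0.762 and 0.679 in Cadict, and reached 3.62, 3.52 and 3.65 in Cu-Cys. Smg8 to Smg1 went from 1.66 ± 0.0772 (SD, n = 3) to 0.289 ± 0.0432. Smaller shifts were seen for Upf2 to Upf1 (0.29 ± 0.0148 to 0.153 ± 0.00935) and Smg9 to Smg1 (0.925 ± 0.0143 to 1.33 ± 0.271). The ratio of Smg6 to Upf1 was 0.318 ± 0.00996 in Ctrl and 0.317 ± 0.0224 in Cadict, with overlapping libraries. For the 6 other ratios Ctrl and Cadict did not overlap. A two-sided exact permutation test gave p = 0.1 for each, the smallest value that 3 against 3 libraries allow (0.117 after adjustment over the 7 ratios). No share over other gene pairs is given here, while 87.5% of single genes did not overlap between Ctrl and Cadict on the TMM scale.

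**Figure D3:**
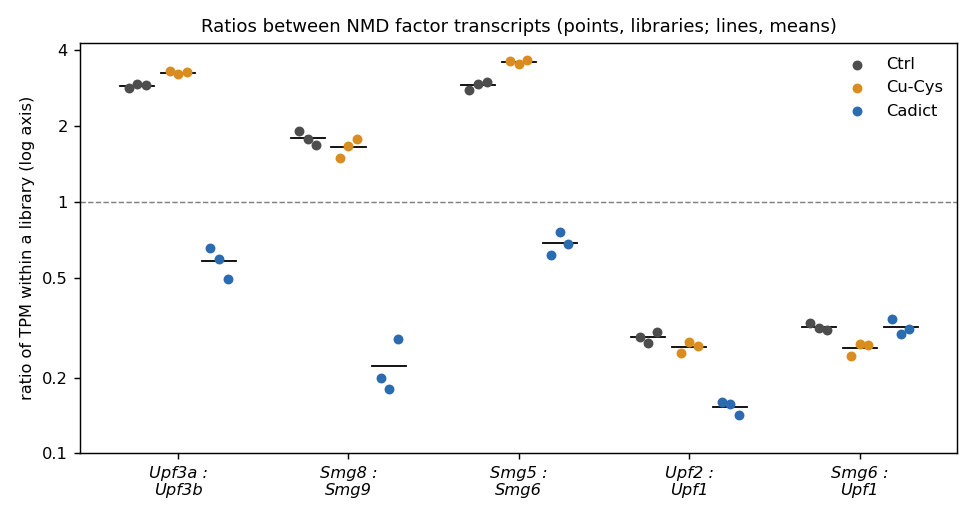
Ratio of the TPM of 2 transcripts within each library (vertical log axis, dashed line at equal levels) for 5 pairs, with points for libraries and lines for group means. Upf3a to Upf3b, Smg8 to Smg9 and Smg5 to Smg6 lie above 1 in all Ctrl and Cu-Cys libraries and below 1 in all Cadict libraries, and Smg6 to Upf1 has means of 0.318 in Ctrl and 0.317 in Cadict.

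Levels per length, in TPM, put Upf3a first in Ctrl at 63.4 ± 1.21 (SD, n = 3), ahead of Upf1 at 57.2 ± 3.16 and Smg5 at 52.9 ± 2.81. Upf1 and Smg5 overlapped between libraries. Smg8 followed at 32.7 ± 0.971, then Upf3b at 21.9 ± 0.665 and Smg1 at 19.7 ± 0.558. Smg9 (18.2 ± 0.728), Smg6 (18.2 ± 1.51) and Upf2 (16.6 ± 0.622) came last, each overlapping the next. In Cu-Cys the same 3 transcripts led, at 68.5 for Upf3a, 61.4 for Upf1 and 57.7 for Smg5, all overlapping in order.

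In Cadict the order was another. Upf1 led at 44 ± 5.65 TPM and Smg9 came next at 21.6 ± 0.127, clear of its neighbours. Smg1 (16.6 ± 3.14), Smg6 (14 ± 2.35) and Upf3b (11.5 ± 1.68) overlapped each in turn, and Upf3b overlapped Smg5 (9.5 ± 0.905). Upf2 (6.71 ± 0.664), Upf3a (6.62 ± 0.555) and Smg8 (4.81 ± 1.23) closed the list and also overlapped in order. The members together summed to 292.8 to 307.2 TPM in Ctrl, 299.3 to 319.8 in Cu-Cys and 118.5 to 148.7 in Cadict. TPM shares a fixed total, so this sum carries the shift of the Cadict libraries towards a few abundant genes.

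Cu-Cys alone moved these transcripts little. Of the 9 members, 4 passed the edgeR test as higher and 0 as lower (0 also at an unadjusted p of at most 0.05, with DESeq2 and with limma), while 45% of all genes passed, 22.6% as higher and 22.4% as lower. The libraries of Cu-Cys and Ctrl did not overlap for 7 members, beside 61.2% of genes. Those that passed were Upf1 (log2 fold change 0.24 ± 0.06, adjusted p = 0.00427), Upf3a (0.28 ± 0.06, adjusted p = 0.00104), Smg5 (0.27 ± 0.05, adjusted p = 0.000915) and Smg9 (0.25 ± 0.09, adjusted p = 0.025), by edgeR's quasi-likelihood test. The call for Smg9 was lost without Ctrl replicate 1, Cu-Cys replicate 1 or Cu-Cys replicate 2 (adjusted p = 0.119, 0.107 and 0.0694), and with library totals (0.0742), which left 3 members higher. On log2 FPKM in limma the calls for Smg9 (adjusted p = 0.106) and Upf1 (0.0782) were lost. For Upf2, Upf3b, Smg1, Smg8 and Smg6 the log2 fold changes lay between -0.04 and 0.11 and did not pass, with 95% intervals reaching from -0.18 to 0.27. No member met the study's rule, which 1.64% of genes did. Limma on the log2 of TPM called 0 members, with values of 0.1 to 0.12 for Upf1, Upf3a and Smg5.

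Set against Cu-Cys, Cadict again raised 5 members and lowered 3, while 85.9% of genes passed the test, 40.3% as higher and 45.6% as lower. Under the study's rule 2 were higher and 3 lower, beside 42.2% of genes in either direction, 18.6% as higher and 23.6% as lower, and the libraries did not overlap for any member, beside 85% of genes. This comparison shares the Cadict libraries with that against Ctrl. Upf3a fell 4.47-fold (log2 fold change -2.16 ± 0.07, adjusted p = 3.87e-13, edgeR), and Smg5 fell 2.73-fold (-1.45 ± 0.06, adjusted p = 2.33e-12). Smg8 fell 3-fold (-1.59 ± 0.09, adjusted p = 1.19e-10). Among the higher members, Smg9 changed by 1.24 ± 0.08, Smg1 by 1.01 ± 0.08, Smg6 by 0.91 ± 0.07, Upf1 by 0.68 ± 0.06 and Upf3b by 0.26 ± 0.07. In limma on log2 TPM with a pseudocount of 1, Smg9 lost its call (0.14, adjusted p = 0.0701), and 0 members were higher. With library totals 1 member was higher and 6 lower, with Upf1 at -0.2, Upf3b at -0.62, and no call for Smg1 (0.13, adjusted p = 0.135) or Smg6 (0.03, adjusted p = 0.707). Upf2 was at -0.12 (adjusted p = 0.0796). It passed as lower with library totals (-1, adjusted p = 1.47e-10), with at least 10 counts in every library (-0.15, adjusted p = 0.0238), without a count filter (-0.21, adjusted p = 0.00781), in limma on log2 TPM and FPKM, and without Cadict replicate 1 (adjusted p = 0.0443), and as higher with the length trend removed (0.28, adjusted p = 0.000268). Without a count filter Upf3b lost its call (0.17, adjusted p = 0.0516), which left 4 members higher and 4 lower.

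Other factors of the pathway were taken from lists of related genes. The 5 further NMD factors tested here all rose with Cadict against Ctrl, whereas with library totals 2 were higher and 2 lower. They had a median log2 fold change of 1.07 beside -0.13 over all tested genes. Of all tested genes, 40.6% passed as higher and 47.1% as lower, or 2161 and 8730 genes with library totals. Ruvbl2 and Ruvbl1, ATPases that help to assemble SMG1 and related kinases, changed by 1.6 and 0.59. The helicase Dhx34 changed by 1.15, Pnrc2, an adaptor between UPF1 and decapping, by 1.07 and Nbas by 0.72.

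Of 10 exon junction complex genes, 8 rose and 2 fell, or 6 and 4 with library totals, with a median of 1.45. Beside them, 40.6% of all tested genes were higher and 47.1% lower, or 2161 and 8730 genes with library totals. Magohb and Rbm8a, which form the core heterodimer of the complex, rose by 2.32 and 2.15. Cwc22, the splicing factor that brings EIF4A3 to the spliceosome, went from 52.7 ± 1.52 to 17.1 ± 1.6 CPM (-1.62 ± 0.07), and Casc3, an outer core subunit, from 79.9 ± 2.58 to 41.4 ± 4.69 CPM (-0.95 ± 0.07). On the TMM scale Casc3 thus fell while Magohb and Rbm8a rose, and over all tested genes both directions were common.

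Among 7 genes of translation termination and of cap or poly(A) binding, 6 rose and 1 fell, or 1 and 3 with library totals, with a median of 0.94. The shares over all tested genes were 40.6% higher and 47.1% lower, or 2161 and 8730 genes with library totals. The release factor gene Etf1 had the largest rise of this list, from 299 ± 7.41 to 1610 ± 27.5 CPM (2.43 ± 0.05), and the cap-binding Ncbp2 rose by 1.03. Gspt2, a gene for eRF3, the GTPase that works with the release factor, fell from 12.6 ± 0.145 to 0.71 ± 0.292 CPM (-4.14 ± 0.17, adjusted p = 3.07e-12, edgeR). The other eRF3 gene, Gspt1, was more abundant and rose on the TMM scale, from 327 ± 3.07 to 629 ± 10.9 CPM (0.94 ± 0.04).

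The 15 genes of decapping and 5′ to 3′ decay held 7 that were higher, 5 lower and 3 that did not pass, or 3 higher and 11 lower with library totals, and their median was 0.07. Over all tested genes 40.6% were higher and 47.1% lower. Lsm4 (1.51) and Lsm5 (1.39), subunits of the LSM ring that binds deadenylated ends, had the largest rises. The exonuclease gene Xrn1 fell from 54.7 ± 0.61 to 31.7 ± 3.5 CPM (-0.78 ± 0.08). Dcp1b, a decapping cofactor, was low in all groups, at 1.38, 0.909 and 0.741 CPM in Ctrl and 0.17, 0 and 0.084 in Cadict, which is at most 2 counts a Cadict library, and no fold is given.

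Of 11 transcripts listed as known NMD substrates, 7 were measured, 6 of them higher and 1 lower with Cadict, or 4 and 3 with library totals, with a median of 2.59. All tested genes were 40.6% higher and 47.1% lower in the same comparison, or 2161 and 8730 genes with library totals. Most of the 7 are also stress-response genes. Atf3, a stress-induced transcription factor, went from 14.8 ± 2.15 to 1650 ± 90.8 CPM (6.8 ± 0.09), and Gadd45a, a growth-arrest gene, from 17.2 ± 0.397 to 403 ± 28.9 CPM (4.55 ± 0.07). Tbl2 fell from 43.1 ± 1.39 to 14.5 ± 3 CPM (-1.57 ± 0.1). With Cu-Cys alone 3 of the 7 were higher and 3 lower, beside 22.6% and 22.4% of all tested genes, with Atf3 at -0.47 and Gadd45a at -0.42. The 4 non-coding host transcripts of the list, Gas5, Snhg1, Snhg12 and Zfas1, were not analysed here. These libraries measure levels only, and no RNA half-life or NMD activity was measured.

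**Figure D4:**
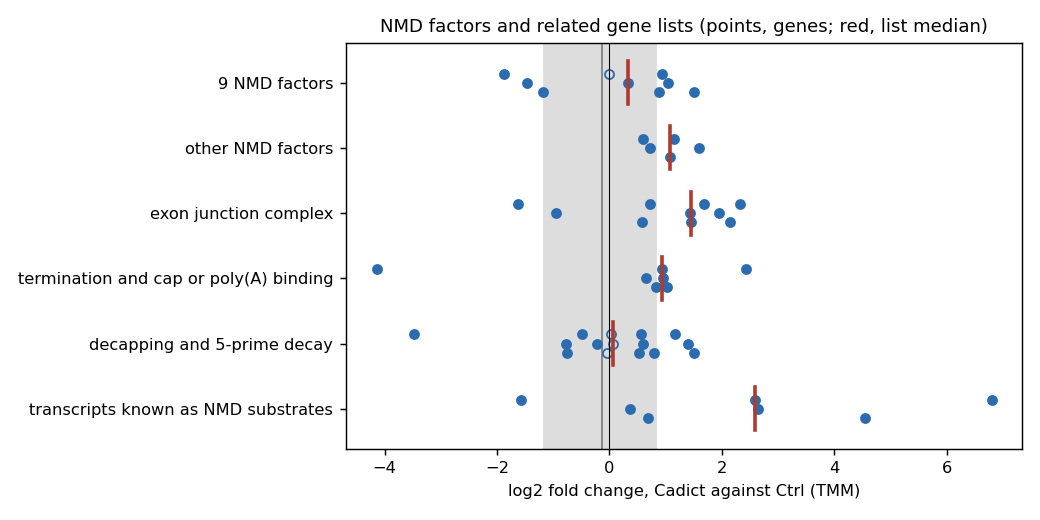
Log2 fold change of Cadict against Ctrl (horizontal axis, TMM scale) for the 9 NMD factors and 5 related gene lists, with filled points for genes that passed the test, open points for those that did not, and red bars for list medians. The grey band runs from the lower to the upper quartile of all tested genes, -1.17 to 0.82, with the median of -0.13. Among the 9 NMD factors, Upf3a, Smg8 and Smg5 lie at or beyond its lower end, whereas the 5 other NMD factors all lie above 0 on this scale.

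Gene models were taken from GENCODE M21 on GRCm38, which is not the GRCm39 build named in the submitters' processing notes. The members' coding lengths ran from 1269 bases (Upf3a) to 10977 (Smg1), and their median was 3054 bases, with 1182 over 21732 coding genes, and their median number of exons 19, with 7 over all. Smg1 had 63 exons, and Smg8 had only 4 exons and a 3′ UTR of 221 bases. Features that can make an mRNA an NMD target were also counted. A 5′ UTR with an upstream ATG was present for Upf2, Smg1, Smg9 and Smg5, as it was for 10867 of the 21732 coding genes, and a junction more than 50 bases after the stop codon for 0 of 9, beside 0.396%. Smg1, Smg5 and Smg6 had an annotated transcript of the NMD class, as did 20.6% of genes. The 3′ UTR was 958 bases at the median, with 731 over all, and 4233 bases for Smg1. These features were found among members that rose and members that fell. Stretches of 50 bases shared with another gene made up at most 1.0% of any member, so few reads could be split between copies.

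The genes whose levels followed Upf1 most closely over the 9 libraries, among 8550 genes at 10 CPM or more, were Vps8, Rfxank and Pgrmc2 (Pearson r of log2 CPM 0.9955, 0.9949 and 0.9941). For Upf3a, the member with the largest change, they were Snx19, Spats2 and Polr1b (0.9989, 0.9987 and 0.9985). The 9 points are 3 groups of libraries with a large gap between Cadict and the rest, so such values are common here, and 1934 genes had an r above 0.95 with Upf1 and 1905 with Upf3a.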

How the data were processed

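Poly(A) RNA of 9 MC38 libraries was sequenced. The authors deposited 1 table of gene values, in which expected counts are estimated reads per gene without normalization. The authors' deposited FPKM and TPM values are scaled for length and depth, and the deposited signal values, counts divided by a size factor per library, were not used. The submitters' processing notes name HISAT2 2.1.0, Bowtie2 2.3.4.3 and RSEM 1.3.1 with the builds GRCh38.p13 and GRCm39, without roles, and whether counting used strand is not given in the sources used here. The study's methods name TRIzol and an Illumina instrument, and the labels a column kit and DNA nanoballs.

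Expected counts were rounded and tested in R 4.3.3 with edgeR 4.0.16 (filterByExpr, TMM, 1 quasi-likelihood fit of the 3 groups). Benjamini-Hochberg adjustment ran over 11949 genes per comparison, and a gene passed at an adjusted p of at most 0.05. TPM ratios were compared by two-sided exact permutation tests. The members and gene lists were chosen with earlier results of these data known. All 9 members are named and, from each other list, the genes with the 2 largest rises and falls with Cadict that passed, or the whole list where it has at most 6 tested genes. Gspt1 was named in addition, as the other eRF3 gene beside Gspt2. Named as most alike are the 3 genes with the highest r with Upf1 and with the member of the largest change. Alternatives were DESeq2 1.42.0 size factors and Wald test, library totals, removal of the length trend, other count filters, a replicate block, limma 3.58.1 on log2 TPM (pseudocounts of 1 and 0.1) or FPKM, fits of 2 groups, and each library left out. 1 gene of the lists is not reported here. The procedure was tested on simulated data. Same-numbered replicates of different groups had correlated deviations of -0.192 to 0.152 over 8551 genes, with 2 of 9 above 0.1, so the numbers were not treated as pairs. A count of 3, the most that a count of 0 allows, is 0.164 to 0.168 CPM of the library total, and this limit covers counting error only.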

Additional observations from a re-analysis of the deposited data

How the results depend on the processing

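With library totals, Cadict against Ctrl had 1 member higher and 5 lower, and Cadict against Cu-Cys 1 and 6. The cause of this and of the changes below was not tested beyond the shift of all genes given with them. Against Ctrl the values were -0.03 for Upf1, -0.62 for Upf3b and for the members' median, and -0.08 for Smg6. Against Cu-Cys they were -0.2 for Upf1 and -0.62 for Upf3b and the median, and Smg1 was at -0.04 in Cu-Cys against Ctrl. The median of all genes moved with this scaling by -0.95, -0.88 and -0.07 in Cadict against Ctrl, Cadict against Cu-Cys and Cu-Cys against Ctrl. In Cadict against Ctrl it moved by 0.12 with DESeq2 size factors, 0.15 with the length trend removed, -1 and -1.26 on log2 TPM and -0.65 on log2 FPKM, and all genes that passed split into 4857 higher and 5627 lower, against 2161 and 8730 with library totals, 1406 and 9516 on log2 TPM and 2112 and 8672 on log2 FPKM. Limma on log2 TPM with pseudocounts of 1 and 0.1, which carries the same shift, gave 1 member higher and 7 lower against Ctrl, 0 and 6 against Cu-Cys and 0 higher in Cu-Cys against Ctrl. With Cadict against Ctrl its values at the 2 pseudocounts were -0.38 for Upf1 at both, -0.88 and -0.93 for Upf3b and the median, -0.25 and -0.26 for Smg1, and -0.37 and -0.39 for Smg6. Against Cu-Cys they were -0.47 and -0.48 for Upf1, -0.82 and -0.87 for Upf3b and the median, -0.14 for Smg1 at both, and -0.19 and -0.21 for Smg6. In Cu-Cys against Ctrl, Upf2, Smg8 and the median were at -0.03, Upf3b at -0.06, and Smg1 at -0.11 and -0.12. On log2 FPKM, 1 member was higher and 5 lower against Ctrl (Upf1 and Smg6 at -0.04, Upf3b and the median at -0.54), 1 and 6 against Cu-Cys (Upf1 at -0.2, Upf3b and the median at -0.55), and 2 higher in Cu-Cys against Ctrl, where Smg1 was at -0.04. In Cadict against Ctrl, Upf2 was at -0.01 in the main fit and did not pass the test. Its value was 0.11 with DESeq2 (size factors or Wald test), 0.47 with the length trend removed and 0.03 with only Ctrl and Cadict fitted. Removing the length trend also gave 7 members higher in Cu-Cys against Ctrl, with Smg6 at 0.05, and Upf2 at 0.28 in Cadict against Cu-Cys. Counts in Cadict against Cu-Cys were 5 higher and 4 lower with at least 10 counts in every library, and 4 and 4 without a filter.

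Leaving out each library in turn kept 5 members higher and 3 lower with Cadict against Ctrl, and 5 higher with 3 to 4 lower against Cu-Cys. In Cu-Cys against Ctrl 3 to 4 were higher. Upf2 ranged from -0.04 to 0.02 with Cadict against Ctrl, and Smg1 from -0.02 to 0.09 with Cu-Cys. The replicate block, in which numbers were taken as pairs although deviations did not correlate, left the members' counts at 5 higher and 3 lower in both Cadict comparisons and at 4 higher in Cu-Cys against Ctrl, with Upf3a at -1.88. Alternatives for the gene lists were chosen after seeing the data. With library totals, other NMD factors had 2 higher and 2 lower, exon junction complex genes 4 lower, termination genes 1 higher and 3 lower, decapping genes 3 and 11, and NMD substrates 3 lower. With limma on log2 TPM the counts higher and lower were 2 and 3, 4 and 4, 1 and 6, and 0 and 12 for the first 4 lists, with 3 NMD substrates lower. The lowest member count in any library was 108 (Upf3a, Cadict replicate 3), while at most 2 counts of Dcp1b in a Cadict library left its fold unmeasured.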
